A study of Mus musculus with 7 samples.

Results

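Nodal signalling was described through 9 genes, chosen by symbol from the 55484 genes of the count table: the ligands Nodal and Gdf3, the ligand inhibitors Lefty1 and Lefty2, the co-receptor Tdgf1 (Cripto), the receptors Acvr1b, Acvr2a and Acvr2b, and the nuclear cofactor Foxh1. All 9 were found, and 8 of them had enough counts to be tested. RNA-seq libraries of mouse embryonic fibroblasts (MEFs, 4 libraries) and of mouse embryonic stem cells (mESCs, 3 libraries) were compared, all of C57/Bl6 background and with no treatment or time point named. The study calls its transcriptional data biological replicates, in a number per cell type below that of the MEF libraries here, and the labels do not say whether libraries came from separate embryos or cell lines, so the p-values measure the spread between these libraries, which may be partly technical. The study's methods describe sorting of Thy1+ MEFs and of Thy1-/Ssea1+/Epcam+ mESCs for its chromatin libraries, and the labels' RNA protocol speaks of blood stem cells from mice of different ages (young and aged), so the cell types were checked by their markers. The number right after the cell type is the same in all column names, and no label says whether it marks a shared source of cells. Every MEF column name holds the letter O and every mESC column name the letter Y, which no label explains. Whatever these letters stand for cannot be told apart from the cell type. In bulk samples, fewer expressing cells and less RNA per cell cannot be told apart.

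Nodal is a secreted ligand of the TGF-beta family that patterns the early embryo, where it sets up mesendoderm and the left-right axis. It binds a type II receptor (ACVR2A or ACVR2B) and the type I receptor ACVR1B in the presence of the co-receptor Cripto, whereupon SMAD2 and SMAD3 are phosphorylated, join SMAD4 and act with FOXH1 on target genes. Nodal and the Lefty genes are themselves targets, and the Lefty proteins block the ligand and its co-receptor, so that the pathway both amplifies and restrains itself. Activins use the same receptors and SMADs but do not need Cripto, and follistatin traps them.

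The ligands, their Lefty inhibitors and the co-receptor Cripto were far higher in mESCs than in MEFs, where several of them were near the limit of detection. Of the 9 members, Nodal, Gdf3, Lefty1, Lefty2, Tdgf1 and Acvr2b were higher in mESCs, 0 were lower, Acvr1b and Acvr2a did not pass the test, and Foxh1 could not be tested. Of all 16580 tested genes, 47.9% passed, 22.8% as higher in mESCs and 25.0% as lower. A gene passed where its p from the quasi-likelihood test of edgeR, adjusted by Benjamini and Hochberg's method over all tested genes, was under 0.05. No overlap between MEF and mESC libraries was seen for 7 of the members, and for 52.1% of all tested genes, 25.9% higher and 26.2% lower in mESCs. The median log2 fold change, as log2 of mESC over MEF, was 5.54 over the 8 tested members and 0.04 over all tested genes. Because the members were chosen with earlier results of these data known, the shares and medians beside all genes only describe them. Levels are given as CPM, the counts of a library brought to a common total and scaled by edgeR's TMM method, and libraries by the end of their column name, O1 to O4 for MEFs and Y1 to Y3 for mESCs. A count of 3, taken as the floor, corresponded to 0.288 to 0.477 CPM in the 7 libraries and covers counting error only.

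**Figure D1:**
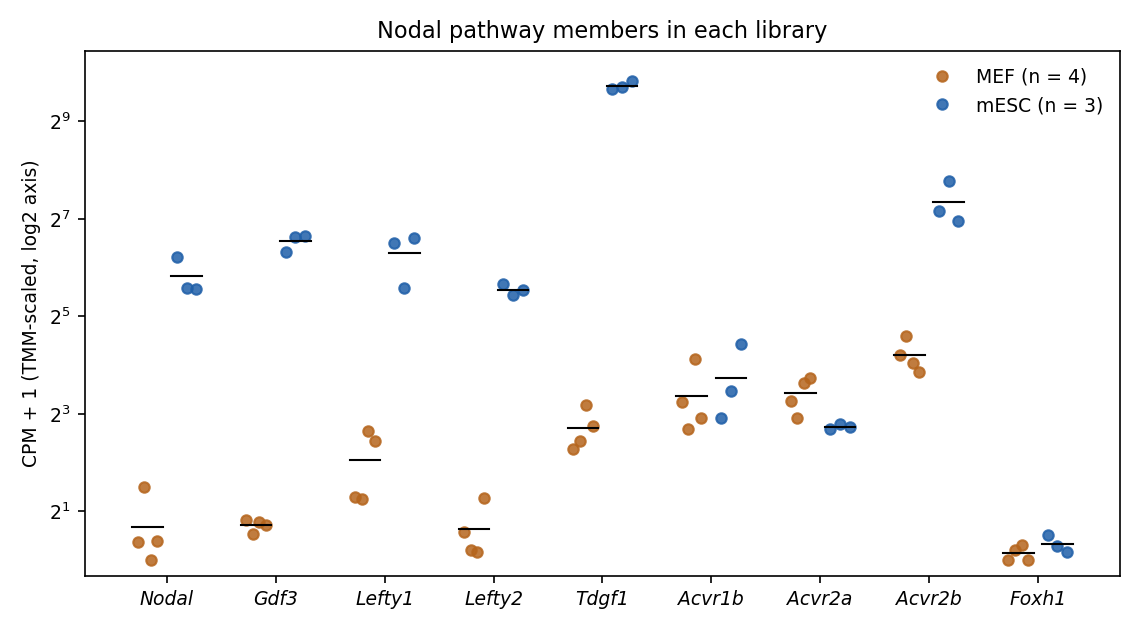
TMM-scaled CPM + 1 on a log2 axis for each member in each of the 4 MEF (brown) and 3 mESC (blue) libraries, with a black line at the mean. Nodal, Gdf3, Lefty1, Lefty2, Tdgf1 and Acvr2b show no overlap and lie above the MEF points in all mESC libraries, Acvr1b overlaps, and Foxh1 lies near 0 CPM in both.

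Lefty1 and Lefty2 lie on the same strand of chromosome 1 of GRCm38 (180935022 to 180938400 and 180893108 to 180899103), and their coding sequences are identical at 91.8% of 1104 aligned bases, which bears on how well their reads can be told apart. Reads were counted only where they mapped to a single place, and the libraries were primed from the poly(A) tail, so the last stretch of a transcript matters most. Of the 50-base sequences in the last 500 bases of the annotated transcripts, 20.6% for Lefty1 and 14.6% for Lefty2 also occur in another gene, mostly the other Lefty gene. Tdgf1 shares 8.25% there, mostly with the pseudogene Tdgf1-ps1, and Gdf3 5.07% with Pbdc1. The exons of Acvr2a overlap those of Orc4, a replication origin gene on the opposite strand, over 446 bases, and 44.0% of its final 50-base sequences are shared with Orc4. Nodal, Acvr1b, Acvr2b and Foxh1 share 0 of these sequences. The strand setting of the counting is not given in the sources used here, so reads from the overlap of Acvr2a and Orc4 cannot be assigned.

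RefSeq promoter sequences of GRCm38.p6, from 250 bases before to 50 after the transcription start, were found for 5 of the 9 members (Nodal, Tdgf1, Acvr1b, Acvr2a and Acvr2b). The 3 that rose in mESCs are printed to show how unlike they are. Capitals mark matches, on either strand, to AATNNACA (a loose form of a FOXH1 motif), CAGAC (a SMAD motif) and GGGNGTGG (a KLF motif). N stands for any base, so a match to AATNNACA need not be a sequence that FOXH1 prefers. The matches do not overlap one another in these windows.
Nodal (chr10:61417722-61418021, plus strand): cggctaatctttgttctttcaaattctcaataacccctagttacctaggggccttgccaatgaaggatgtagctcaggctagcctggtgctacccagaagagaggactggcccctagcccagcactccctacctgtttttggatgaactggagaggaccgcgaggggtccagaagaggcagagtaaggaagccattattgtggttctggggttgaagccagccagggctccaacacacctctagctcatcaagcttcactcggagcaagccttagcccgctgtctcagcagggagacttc
Tdgf1 (chr9:110946109-110946408, minus strand): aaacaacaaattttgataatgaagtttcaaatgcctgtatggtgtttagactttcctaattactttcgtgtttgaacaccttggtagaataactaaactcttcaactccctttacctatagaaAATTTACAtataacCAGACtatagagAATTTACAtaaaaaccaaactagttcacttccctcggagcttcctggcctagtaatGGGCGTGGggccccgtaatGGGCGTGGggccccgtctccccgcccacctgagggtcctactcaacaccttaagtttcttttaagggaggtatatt
Acvr2b (chr9:119401928-119402227, plus strand): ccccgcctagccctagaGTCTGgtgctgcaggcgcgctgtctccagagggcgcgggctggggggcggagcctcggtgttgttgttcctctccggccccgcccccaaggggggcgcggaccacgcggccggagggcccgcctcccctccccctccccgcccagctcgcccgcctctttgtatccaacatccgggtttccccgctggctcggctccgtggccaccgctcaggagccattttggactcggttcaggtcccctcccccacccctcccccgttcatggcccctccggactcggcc

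The Tdgf1 window held 2 matches to the loose FOXH1 motif, 1 to the SMAD motif and 2 to the KLF motif. Both of the first kind read AATTTACA, and whether FOXH1 takes TT at the open positions was not tested. Of 32851 promoters, 1.43% held 2 or more matches to AATNNACA and 3.32% held 2 or more KLF matches. The motifs were chosen after the sequences were seen, so these shares cannot measure how unusual the Tdgf1 window is. The Nodal and Acvr1b windows held 0 matches to any of the 3 motifs, and Acvr2b and Acvr2a held 1 match to the SMAD motif each, which 49.6% of all promoters held at least once. CpG dinucleotides numbered 5 in the Nodal window and 7 in that of Tdgf1, near the median of 7 over all promoters. The receptor windows held 27 (Acvr2b), 51 (Acvr1b) and 54 (Acvr2a), above the upper quartile of 20. A match is a description of letters in this window and does not show binding.

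Nodal (chromosome 10, 61417972 to 61425338) had 3, 12, 0 and 2 counts in the MEF libraries O1 to O4 and 673, 414 and 394 in the mESC libraries Y1 to Y3. In CPM these were 0.288, 1.83, 0 and 0.318 in MEFs and 72.9, 47.0 and 46.5 in mESCs. In MEFs, 3 of the 4 libraries were at or under the floor, and among mESCs Y1 stood above Y2 and Y3, which were nearly equal. The mean rose from 0.609 ± 0.826 CPM (SD, n = 4) to 55.5 ± 15.1 (SD, n = 3), and log2 of the fold change was 6.61 ± 0.618 (SE, adjusted p = 1.01e-05 by edgeR). Without O2, which held 12 of the 17 pooled MEF counts, the log2 fold change was 8.01.

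Gdf3 (chromosome 6, 122605403 to 122610087), a ligand related to Nodal that is known from pluripotent cells and can act through the same receptors and Cripto, had 8, 3, 6 and 4 counts in MEFs and 726, 864 and 842 in mESCs. These were 0.767, 0.457, 0.719 and 0.636 CPM in MEFs and 78.7, 98.2 and 99.3 CPM in mESCs. The libraries of each cell type lay close together, with 1 MEF library at the floor. The mean rose from 0.645 ± 0.136 CPM to 92.1 ± 11.6, and log2 of the fold change was 7.09 ± 0.238 (SE, adjusted p = 1.64e-08 by edgeR). Y1, the mESC library with the most Nodal, had the least Gdf3, and the sum of both ligands ran from 145 to 152 CPM in mESCs and from 0.719 to 2.29 CPM in MEFs.

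Lefty1, an antagonist of Nodal that is also its target, had 15, 9, 44 and 28 counts in MEFs, all over the floor, or 1.44, 1.37, 5.27 and 4.45 CPM. In mESCs it had 835, 415 and 817 counts or 90.5, 47.2 and 96.4 CPM. O3 and O4 held more than O1 and O2, and Y2 held less than the other mESC libraries. Log2 of the fold change was 4.65 ± 0.460 (SE, adjusted p = 1.52e-05 by edgeR), from 3.13 ± 2.02 CPM to 78.0 ± 26.9.

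Lefty2, the other antagonist, had 5, 1, 1 and 9 counts in MEFs, or 0.480, 0.152, 0.120 and 1.43 CPM, so that O2 and O3 were under the floor. In mESCs it had 457, 372 and 388 counts, or 49.5, 42.3 and 45.8 CPM, a narrower spread than that of Lefty1. The mean rose from 0.546 ± 0.612 CPM to 45.9 ± 3.63, and log2 of the fold change was 6.44 ± 0.490 (SE, adjusted p = 2.27e-06 by edgeR). Without O4, which held 9 of the 16 pooled MEF counts, it was 7.31.

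Because reads can be lost or moved between the Lefty genes, both were also summed. The sum was 1.92, 1.52, 5.39 and 5.88 CPM in O1 to O4 and 140, 89.4 and 142 CPM in Y1 to Y3, with no overlap. On the scale of log2(CPM + 1) the mean difference was 4.85 (exact permutation test over the 7 libraries, two-sided, p = 0.0286, the smallest the design allows, and 0.0572 after Benjamini-Hochberg adjustment over the 4 single values tested). Lefty1 made up 64.6%, 52.7% and 67.8% of the Lefty counts in Y1 to Y3 and between 75% and 97.8% in MEFs, where it rested on few counts.

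Tdgf1 (chromosome 9, 110939603 to 110946158) encodes Cripto, the cell surface co-receptor that Nodal and Gdf3 need. It had 40, 29, 67 and 36 counts in MEFs, or 3.84, 4.42, 8.03 and 5.73 CPM, and 7483, 7345 and 7673 counts in mESCs, or 811, 835 and 905 CPM. The mESC libraries were within 1.12 times of each other, and O3 was the highest MEF library. The mean rose from 5.50 ± 1.86 CPM to 850 ± 49.0, and log2 of the fold change was 7.27 ± 0.252 (SE, adjusted p = 1.64e-08 by edgeR). The pseudogene Tdgf1-ps1, whose sequence is identical to that of Tdgf1 at 98.8% of 512 aligned coding bases, was assigned 12, 3 and 21 counts in Y1 to Y3, or 0.160% of those of Tdgf1.

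Of the 3 receptors, 1 passed the test. Acvr2b, a type II receptor (chromosome 9, 119402118 to 119434995), had 17.6, 23.3, 15.5 and 13.5 CPM in O1 to O4 and 143, 218 and 123 CPM in Y1 to Y3. It was well measured in both cell types, with at least 85 counts in every library, and Y2 was its highest. Log2 of its fold change was 3.20 ± 0.250 (SE, adjusted p = 2.6e-06 by edgeR), which corresponds to a 9.22-fold higher level in mESCs.

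Acvr2a, the other type II receptor (chromosome 2, 48814109 to 48903269), had 8.54, 6.55, 11.4 and 12.2 CPM in MEFs and 5.42, 5.91 and 5.66 CPM in mESCs. Every mESC library was below every MEF library, which was so for 26.2% of all tested genes. Its log2 fold change, -0.77 ± 0.318 (SE), did not pass the test (adjusted p = 0.0686 by edgeR). Without O2, the lowest MEF library, it was -0.92 with an adjusted p of 0.0334 (edgeR). Orc4, which overlaps it, had a log2 fold change of 0.32 ± 0.157 (SE) and did not pass the test (edgeR, adjusted p = 0.115), and its part in the counts of Acvr2a was not tested.

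Within a library, the ratio of Acvr2b to Acvr2a counts was 2.06, 3.56, 1.36 and 1.10 in O1 to O4 and 26.3, 36.9 and 21.6 in Y1 to Y3. The groups did not overlap, and the mean log2 ratio was 0.86 ± 0.740 in MEFs (SD, n = 4) and 4.77 ± 0.389 in mESCs (SD, n = 3). The difference of 3.91 had p = 0.0286 (exact permutation test, two-sided, and 0.0572 after Benjamini-Hochberg adjustment over the 4 values). This ratio does not depend on the scaling between libraries.

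Acvr1b, the type I receptor ALK4 (chromosome 15, 101174067 to 101213684), had 8.44, 5.49, 16.5 and 6.52 CPM in MEFs and 6.50, 10.0 and 20.5 CPM in mESCs. The groups overlapped, with O3 and Y3 high within theirs. Its log2 fold change, 0.41 ± 0.468 (SE), did not pass the test (adjusted p = 0.514 by edgeR), and without Y3 it was -0.18. Against Tgfbr1, a type I receptor that activates the same SMADs for TGF-beta, its count ratio was 0.407, 0.221, 0.531 and 0.232 in MEFs and 0.723, 0.863 and 1.67 in mESCs. The groups did not overlap, and the mean log2 ratio differed by 1.64 (exact permutation test, two-sided, p = 0.0571, 0.0761 after adjustment over the 4 values).

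Foxh1, the forkhead protein that brings SMADs to Nodal target genes (chromosome 15, 76668225 to 76669948), had 0, 1, 2 and 0 counts in MEFs and 4, 2 and 1 in mESCs. The pooled CPM ratio of mESCs to MEFs was 2.78 with a 95% exact counting interval of 0.635 to 16.7, so a difference was not detectable at this depth. In a fit without the filter on low counts its log2 fold change was 1.26 ± 1.54 (SE) (edgeR, adjusted p = 0.583).

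**Figure D2:**
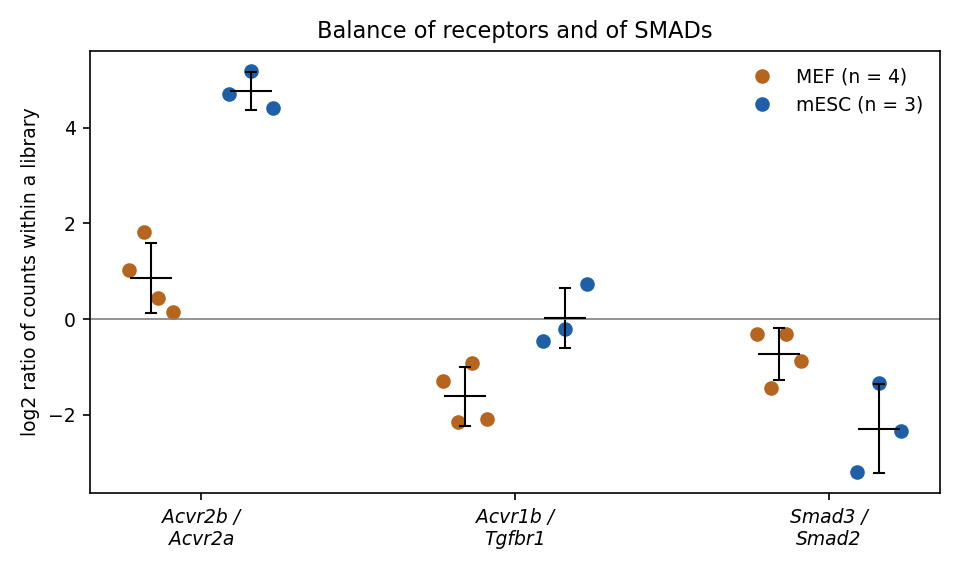
Log2 ratios of counts within a library for Acvr2b over Acvr2a, Acvr1b over Tgfbr1 and Smad3 over Smad2, with each of the 4 MEF (brown) and 3 mESC (blue) libraries as a point and bars for the mean and SD. Both receptor ratios separate the cell types, with all mESC points on top, while the Smad3 over Smad2 ratios overlap.

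The members varied unequally among the mESC libraries. The highest over the lowest CPM of the 3 libraries was 1.12 for Tdgf1, 1.17 for Lefty2, 1.09 for Acvr2a and 1.26 for Gdf3. It was 1.57 for Nodal, 1.78 for Acvr2b, 2.04 for Lefty1 and 3.16 for Acvr1b. The median was 1.52 over the 16107 tested genes for which this ratio was finite. It was 1.33 over the 8725 genes with a mean of at least 10 CPM in mESCs, a set without Acvr2a, whose mean was 5.66 CPM. The libraries did not rank alike across the members. Nodal was highest in Y1, Acvr2b in Y2, and Lefty1 and Acvr1b in Y3, while Lefty1 was lowest in Y2 and Acvr1b in Y1.

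**Figure D3:**
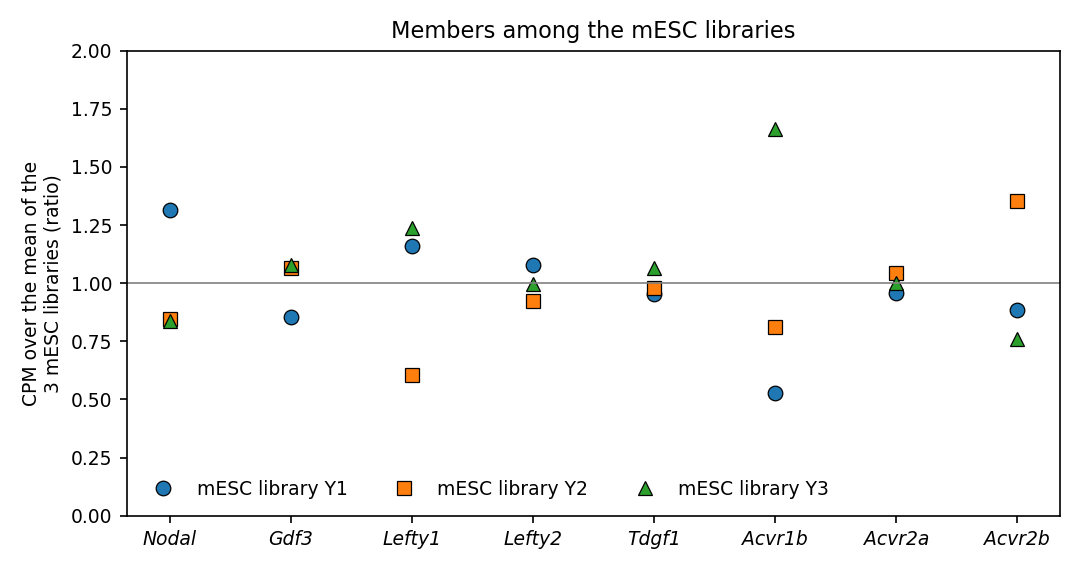
CPM of 8 members in each mESC library divided by the mean of the 3 mESC libraries (ratio, linear axis), with a symbol per library. Tdgf1, Lefty2 and Acvr2a lie close to 1, whereas Acvr1b runs from 0.527 in Y1 to 1.66 in Y3.

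Of 44 other genes of the Nodal and activin pathway, 35 could be tested, and 5 were higher and 17 lower in mESCs, where 22.8% and 25.0% of all tested genes were, shares that also stand behind the counts by role. Their median log2 fold change was -0.60. Without scaling beyond library size, which moved the median over all genes from 0.04 to 0.32, the numbers were 7 and 13. They are described here by role.

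Among the other ligands and the convertases that cut ligand precursors, Inhba, which encodes the subunit of activin A, fell most. It had 829, 827, 409 and 346 CPM in O1 to O4 and 5.31, 8.18 and 1.89 CPM in Y1 to Y3, a log2 fold change of -6.87 ± 0.555 (SE) (edgeR, adjusted p = 3.37e-06). O1 and O2 held more than O3 and O4, opposite to Lefty1. Some fibroblast markers split these libraries too, Dcn with 121 and 149 CPM against 467 and 522 and Thy1 the other way, while Col1a1 did not. A link between Inhba and Lefty1 was not tested. Inhbb, which encodes the subunit of activin B, had a log2 fold change of 0.78 and did not pass (edgeR, adjusted p = 0.219). The convertase Furin fell by 2.67 on the log2 scale (edgeR, adjusted p = 0.0001), and Pcsk6 (PACE4), the other convertase listed, rose by 1.44 (edgeR, adjusted p = 0.00914). Gdf1, a partner of Nodal, was listed at 0 counts in all 7 libraries.

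Among 6 other receptors and co-receptors, 4 of the 5 tested fell and 0 rose. Tgfbr2, the type II receptor of TGF-beta, fell from 36.6 ± 6.0 to 2.39 ± 0.599 CPM, a log2 fold change of -3.93. The TGF-beta co-receptor Tgfbr3 had a log2 fold change of -3.05, Acvr1, a type I receptor of BMPs, -2.50, and Tgfbr1 -1.26, all past the test (largest adjusted p = 0.00125, edgeR). Acvr1c (ALK7), an alternative type I receptor for Nodal, had 4.47 ± 1.48 CPM in MEFs and 3.89 ± 1.82 in mESCs and did not pass. Cfc1 (Cryptic), the relative of Cripto, had 1 count in all libraries together.

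Of 8 other inhibitors outside the cell or in its membrane, 2 of the 6 tested fell and 0 rose. Fst (follistatin), which binds activins, fell from 107 ± 52.4 to 7.22 ± 1.06 CPM, a log2 fold change of -3.89 ± 0.407 (SE) (edgeR, adjusted p = 2.2e-05). As for Inhba, O1 and O2 held more of it than O3 and O4, with 159 and 145 against 67.1 and 56.9 CPM. Bambi, a decoy receptor, had a log2 fold change of -0.68 (edgeR, adjusted p = 0.0191), which did not pass without scaling beyond library size or without Y2 or Y3 (adjusted p = 0.144, 0.0526 and 0.0679, edgeR). Cer1, a Nodal antagonist of the embryo, had 2 counts in MEFs and 0 in mESCs, and Dand5, its relative, did not pass.

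Among the SMAD proteins and their nuclear partners, 6 of 9 tested genes fell and 2 rose. Smad3 had 29.5, 18.8, 34.6 and 29.6 CPM in O1 to O4 and 2.49, 10.2 and 4.25 CPM in Y1 to Y3, a log2 fold change of -2.31 (edgeR, adjusted p = 0.00136), and of -3.06 without Y2, the highest mESC library. Smad2 fell as well, with a log2 fold change of -0.96 (edgeR, adjusted p = 0.00199). Their count ratio overlapped between the cell types, and the mean log2 ratio of Smad3 to Smad2 differed by -1.56 (exact permutation test, two-sided, p = 0.0857, also after adjustment over the 4 values). Zfyve9 (SARA), which presents SMADs to the receptor, fell by 1.03 on the log2 scale (edgeR, adjusted p = 0.00579). The genes that rose were Trim33, a ubiquitin ligase that binds SMADs, and the corepressor Tgif1, with log2 fold changes of 1.53 and 1.38 (adjusted p = 9.18e-05 and 2.18e-05, edgeR).

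Of 7 genes of feedback and protein turnover inside the cell, 1 rose and 2 fell. Smad7, the inhibitory SMAD, had 66.9, 77.1, 58.4 and 38.2 CPM in MEFs and 106, 141 and 72.1 CPM in mESCs. Its groups overlapped, and the log2 fold change of 0.82 (edgeR, adjusted p = 0.0264) did not pass without O3, O4, Y1 or Y2 (adjusted p from 0.0517 to 0.135). Pmepa1, a feedback target that sequesters SMADs, and the ubiquitin ligase Smurf1 fell, with log2 fold changes of -2.32 and -2.06 (edgeR, adjusted p = 6.1e-06 and 9.41e-05). Smurf2, Nedd4l, Rnf111 and Ppm1a did not pass.

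Of 8 genes known as developmental targets of Nodal, 4 could be tested. Eomes, a T-box factor of mesendoderm, rose from 2.34 ± 0.944 to 9.88 ± 3.75 CPM, a log2 fold change of 2.08 (edgeR, adjusted p = 0.00237). Mixl1 and Gsc did not pass. The endoderm factor Sox17 had 0 counts in every MEF library and 51, 41 and 9 in Y1 to Y3, Foxa2 had 0 and 21, 18 and 4, and T and Lhx1 had at most 18 counts in any library. Y1 was the mESC library with the most counts of both endoderm factors and Y3 the one with the fewest. Nodal was at 72.9, 47.0 and 46.5 CPM in Y1 to Y3, and a link between them was not tested. The sum of 6 primitive endoderm markers, Foxa2 among them, was 79.9, 39.0 and 22.4 CPM in Y1 to Y3. Most of that sum came from Dab2 and Gata6, whose means were higher in MEFs. From Y1 to Y3, Dab2 had 45.7, 18.4 and 10.0 CPM and Gata6 26.0, 15.5 and 8.85 CPM. Sox7 had 35, 20 and 6 counts in these libraries, Gata4 18, 7 and 19, and Afp 1, 0 and 1. The part of such cells in these values was not tested.

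**Figure D4:**
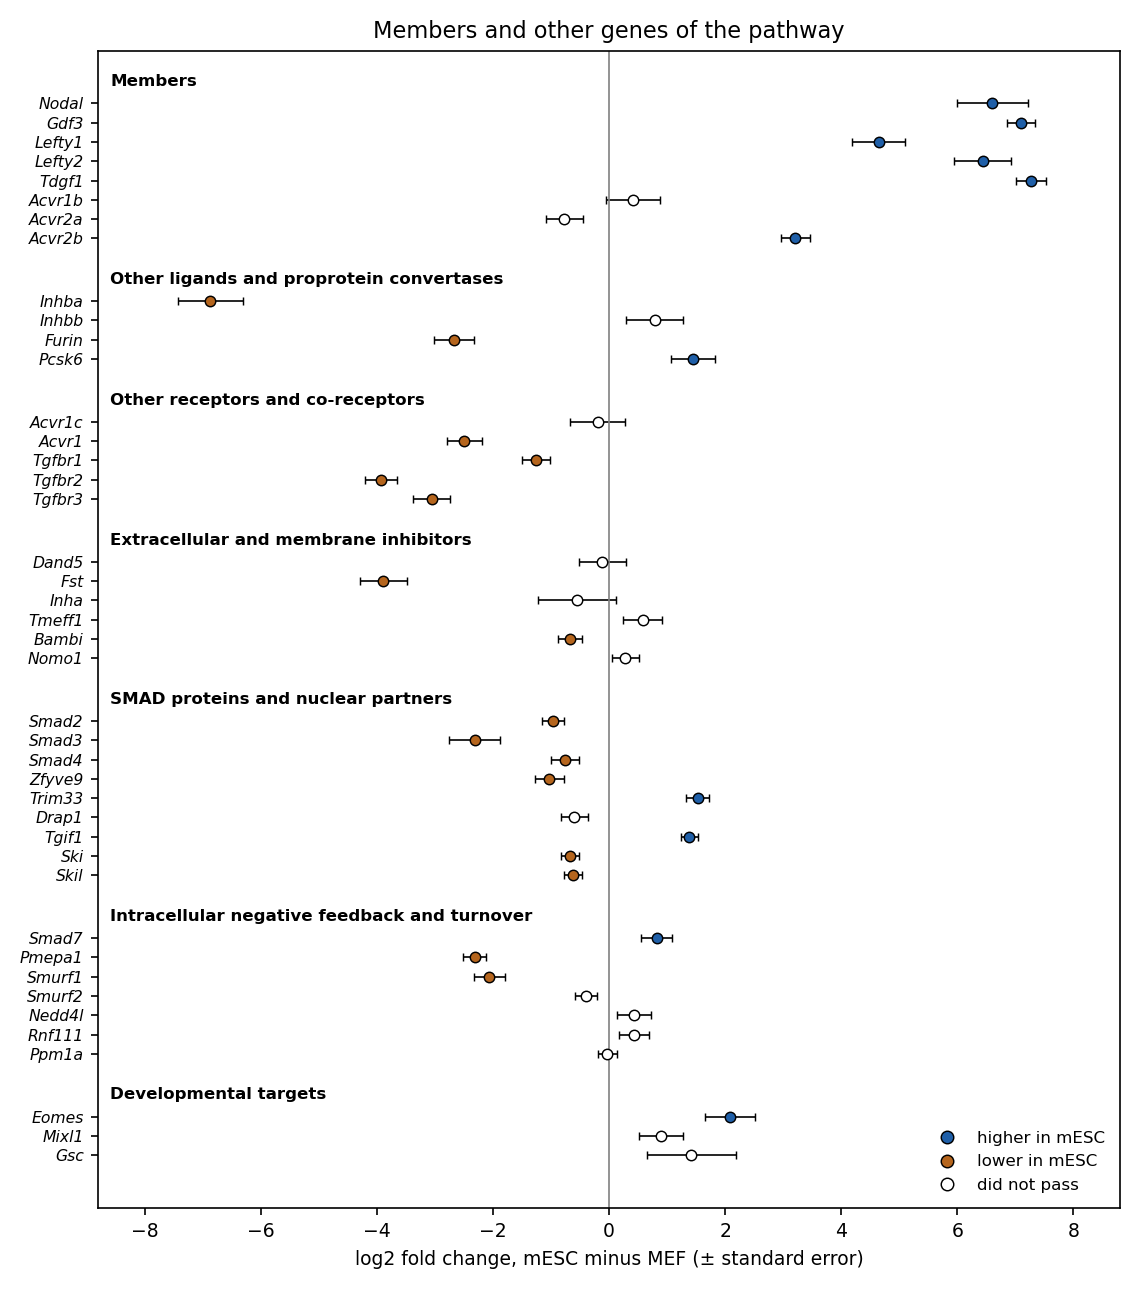
Log2 fold change (mESC minus MEF, points) with its standard error (bars) for the 8 tested members and the other tested pathway genes but 1, grouped by role. Blue points rose and brown points fell in mESCs by the test, and white points did not pass: 6 members are blue, while among the other genes 5 are blue and a larger number brown.

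The genes whose pattern was most like that of the ligands and Cripto were named by the smallest root mean square difference of log2CPM over the 7 libraries, each gene centred between its cell type means. For Nodal these were Triml1 (0.48), Nlrp4f (0.58) and Hsf2bp (0.59), and for Gdf3 Tcl1 (0.18), Gm14124 (0.19) and Zfp936 (0.20). Lefty1 was nearest to Adap1 (0.31), Smagp (0.32) and D630023F18Rik (0.34). Lefty2 was nearest to Cnpy1 (0.21), Platr14 (0.35) and Rbm44 (0.42), and Tdgf1 to Gtsf1l (0.25), Mt2 (0.30) and Ooep (0.35). No other member was among the 3 nearest genes of Nodal, Gdf3, Lefty1, Lefty2 or Tdgf1. Nearest genes of the receptors and of Foxh1 were not sought. The measure includes the difference between the cell types, which is large for each of these genes.

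Library totals ran from 6528643 to 11441278 counts. All 9 pluripotency markers were higher and all 9 fibroblast markers lower in mESCs, in every library. The pluripotency markers summed to 38.6 to 40.4 CPM in MEFs, 1.51% of the mESC mean, which lay beside 1.10% for Nodal, 0.701% for Gdf3, 1.19% for Lefty2, 0.647% for Tdgf1, 4.02% for Lefty1 and 10.8% for Acvr2b. Dppa5a, at 16.1 CPM, and Epcam, at 11.4 CPM, made up most of the sum in MEFs, and the single markers ran from 0.398% (Dppa4) to 4.45% (Epcam), with 5 of the 9 (Dppa4, Sox2, Pou5f1, Zfp42 and Esrrb) at lower percentages than Nodal, Gdf3 and Lefty2. The highest over the lowest MEF library ran from 1.14 for Nanog to 4.64 for Tfcp2l1, beside 3.84 for Lefty1, and the part of such transcripts in the MEF values of the members was not tested. The fibroblast markers in mESCs summed to 0.566% of their MEF mean. Of the 6 primitive endoderm markers only 2 could be tested, of which Dab2 was lower in mESCs and Gata6 did not pass. Pooled counts of the untested ones in MEFs and mESCs were 0 and 43 for Foxa2 and 6 and 61 for Sox7. They were 5 and 44 for Gata4 and 20 and 2 for Afp. The primitive endoderm markers summed to 83.8 to 143 CPM in MEFs. Of 5 endothelial markers 3 could be tested and 0 passed, with sums of 13.7 to 23.9 CPM in MEFs and 10.6 to 18.3 in mESCs. The untested ones had pooled counts of 40 in MEFs and 4 in mESCs (Cdh5) and of 1 and 31 (Cldn5). Of 5 blood markers 3 could be tested, of which 2 were lower and 1, Laptm5, higher. The blood markers summed to 2.59 to 17.3 CPM in MEFs and 53.3 to 63.4 in mESCs. Nearly all of the mESC sum was Laptm5, at 52.6, 62.4 and 60.4 CPM in Y1 to Y3. The means of the other blood markers were lower in mESCs than in MEFs. Ptprc, which defines blood cells, was not tested and was at 1 to 17 counts in MEFs and at 0 or 1 in mESCs.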

How the data were processed

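Per the labels and the study's methods, RNA was primed from the poly(A) tail with molecular identifiers, and reads were aligned to mm10 with STAR (the labels name version 2.4.2a, the methods another). The authors collapsed identifiers with Je and deposited raw counts of uniquely mapped reads on exons from featureCounts. Annotation release and strand setting are not given in the sources used here. All 7 columns were used. Column names give the cell type, a first number that is the same in all columns, and a last number that is not stated to be the sample's. The members and gene lists were chosen with earlier results of these data known.

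Counts were tested with edgeR 4.0.16 (limma 3.58.1, R 4.3.3): TMM, filterByExpr (16580 of 55484 genes kept), then quasi-likelihood fits of cell type alone to the 7 libraries. P-values were adjusted by Benjamini and Hochberg's method, with 0.05 as threshold. The standard error is the log2 fold change over the square root of F. log2CPM used a prior count of 2. Count ratios had 0.5 counts added, and the Lefty sum 1 CPM. The 4 single values were compared by exact permutation. The code was tested on simulated data. Alternatives were DESeq2 1.42.0, other scalings, filters and pseudocounts, a test against a fold change of 2, and each library left out. Named pathway genes were, per role, up to 3 called genes with the largest change in each direction and those in ratios. Other pathway genes named were chosen after their values were seen. Motifs were also chosen after the sequences were seen. Depth limits Nodal, Gdf3 and Lefty2 in MEFs and Foxh1 in both cell types. Coordinates are from GENCODE M21 on GRCm38. A pathway gene that enters the counts by list is not reported here by name.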

Additional observations from a re-analysis of the deposited data

Results flagged for a closer look

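In groups of 4 MEF libraries, 32 values were examined for a library far from the others, and 3 stood apart, where chance gives about 1.6. Pcsk6 was at 7.63 CPM in O4 and at 3.12 to 3.81 in the other MEF libraries. Tgfbr3 was at 14.3 CPM in O2 and at 23.7 to 24.9 in the others. Acvr1 was at 34.6 CPM in O2 and at 19.2 to 21.2 in the others. None of the 9 members was among them.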

How the results depend on the processing

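No paired analysis was possible because no label ties the number at the end of a column name to a sample. The 6 members higher in mESCs were 6 under each of the 13 alternatives, with largest adjusted p of 0.000124 (Lefty1). Of 104 log2 fold changes of members under an alternative, 102 kept direction and call. Acvr1b turned to -0.18 without Y3, with a range of -0.18 to 0.84 over the 7 fits that each omitted 1 library. Acvr2a passed without O2 at -0.92, the range being -0.92 to -0.65, so members lower in mESCs numbered 0 to 1. Against a fold change of 2, a stricter test by construction, 1714 genes were higher and 2277 lower, and of the other pathway genes 3 and 10. Without scaling beyond library size, 60.8% of calls over all genes were higher in mESCs in place of 47.7%, with 5180 higher and 3345 lower in place of 3785 and 4153. Of 247 values of the other named pathway genes, 13 lost their call and 0 turned. With 1 library left out, the exact permutation tests could not pass the threshold (smallest p 0.1 or 0.0667), and the differences were 4.60 to 5.08 for the Lefty sum, 3.67 to 4.23 for Acvr2b against Acvr2a, 1.28 to 1.88 for Acvr1b against Tgfbr1 and -2.04 to -1.11 for Smad3 against Smad2. With 3 counts added, Acvr1b against Tgfbr1 was 1.60 (p = 0.0286 before adjustment, exact permutation test). Counts of few reads limit the MEF levels of Nodal, Gdf3 and Lefty2 and the levels of Foxh1 in both cell types.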
